A study of Rattus norvegicus with 64 samples.

Results

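The complement components measured here were C1qa, C1qb, C1qc, C1r, C1s, C2, C3, C6 and Cfb, 9 of the 15715 named rat genes on the array. They were taken as the gene probes whose RefSeq transcript accession, without its version, belongs to these symbols in the RefSeq gene table of assembly GRCr8. All 9 had a probe and they filled 10 of the 30367 gene probes, since C2 had 2. RNA of the reconstructed bladder wall was hybridized to 1-color Agilent rat arrays, with 8 biological replicates in each of 8 groups and 64 arrays in all. All rats were male and Wistar, all underwent hemicystectomy, in which part of the bladder is cut away, and all received a graft of about 1 cm2. In the BAM groups the graft was the bladder acellular matrix alone, the bladder wall freed of its cells. In the BAM_ADSCs groups the matrix had been seeded with 10000000 ADSCs, stromal cells grown to the third passage from the retroperitoneal fat of syngeneic male rats aged 10 weeks. Bladders were taken at days 7, 30, 90 and 180. The labels give 10 rats a group and do not mark the seeded cells, so RNA of host and donor cells is measured together. In these bulk samples fewer cells of a type and less RNA per cell cannot be told apart.

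Complement is a cascade of blood and tissue proteins that marks foreign surfaces and injured cells. Its classical pathway starts with C1q, which binds antibodies and dying cells and switches on the proteases C1r and C1s, and these cut C4 and C2. All routes meet at C3, the alternative pathway adds factor B (Cfb) as the protease of its own C3-cutting enzyme, and C6 belongs to the proteins that assemble the pore in a target membrane. Liver makes most of the circulating components, while C1q comes mainly from macrophages and dendritic cells and C1r, C1s and C3 are also made by fibroblasts and epithelium.

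The values are log2 levels relative to the 75th percentile of the gene spots of the same array, and a level is compared between groups for 1 probe at a time. A gene is called changed where limma gave a Benjamini-Hochberg adjusted p below 0.01 and the fold change was above 1.5. All member probes were well above background on 63 or 64 of the 64 arrays. C1qb was saturated on 11 arrays, 7 of them of BAM at day 30, C1qa on 5 and Cfb on 2, and their values were kept. Each group lay on a slide of its own, so slide and group cannot be told apart, and the arrays of days 7 and 30 were scanned on another day than those of days 90 and 180. Between 73.3% and 95.6% of gene spots were well above background at days 7 and 30, and between 35.5% and 64.6% at days 90 and 180. The local background was 321 to 366 intensity units on the arrays of BAM at day 90 and 42 to 171 on all other arrays. The part of scan day and background in the differences between days 30 and 90, and of background in those between grafts at day 90, was not tested. The tissue markers were present in every group: 5 or 6 of 6 urothelial and 6 of 6 smooth muscle genes were well above background on all 8 arrays, whereas of 6 hepatocyte markers at most 1 was well above background on all 8 arrays of a group. That marker list, with Alb at a group mean of -4.68 or lower, had a summed level of 0.0551 to 10.7, to which Ttr gave most at the later days, its highest group mean being 1.11.

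The array of BAM_ADSCs at day 90 replicate 3 stood apart from its group. It was the lowest of 8 in all 9 members, with a median difference of -1.96 on the log2 scale from the mean of the others. Each gene was set against its mean on the other 7 arrays, and the median over each marker list was taken. It was -2.18 for macrophage, -2.50 for B cell, -1.20 for T cell and 1.04 for urothelial markers. Its share of spots well above background, 57.4%, lay within the 54.3% to 64.6% of its group. Each result on this group is given below with and without this array where it decides a call. Over all gene probes its median correlation with the other arrays of its group was 0.968. Every array of BAM at day 90 had a lower value than this, the highest being 0.967 (replicate 1), and so had some arrays of other groups. The lowest of all 64 arrays were BAM at day 90 replicate 8 (0.892) and BAM_ADSCs at day 30 replicate 1 (0.902). For BAM at day 7 replicate 7 the value was 0.935. That array was the highest of its group in 5 of 9 members, and its median difference was -3.74 for urothelial and 2.21 for hepatocyte markers. BAM_ADSCs at day 180 replicate 8 was the lowest of its group in 8 of 9 members. Low arrays also occurred on BAM. Replicate 5 of BAM at day 90 was the lowest in 6 of 9, with a median difference of -0.86. Its medians were -1.32 for macrophage, -3.25 for B cell, -1.35 for T cell and -2.33 for urothelial markers. BAM at day 180 replicate 3 was the lowest in 6, and BAM_ADSCs at day 180 replicate 4 the highest in 7.

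The start regions of members whose values are followed most closely below are shown first, from RefSeq with build GRCr8. Each holds 250 bases before and 50 bases after the annotated start, printed 5′ to 3′ on the strand of the gene. C1qa (chr5:154419884-154420183, minus strand) and C1qb (chr5:154407778-154408077, minus strand) are shown because their levels moved together, and C6 (chr2:55573383-55573682, plus strand) because it was called at 3 of 6 steps between days. Capitals mark matches to the GAS motif in C1qa, to the PU.1 core on both strands and NF-kB in C1qb, and to the TATA box in C6.
C1qa: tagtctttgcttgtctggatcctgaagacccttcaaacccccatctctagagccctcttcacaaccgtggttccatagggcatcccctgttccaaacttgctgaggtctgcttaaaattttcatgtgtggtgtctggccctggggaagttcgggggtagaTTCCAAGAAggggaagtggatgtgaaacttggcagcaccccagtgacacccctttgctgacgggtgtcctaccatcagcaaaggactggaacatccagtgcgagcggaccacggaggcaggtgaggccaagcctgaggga
C1qb: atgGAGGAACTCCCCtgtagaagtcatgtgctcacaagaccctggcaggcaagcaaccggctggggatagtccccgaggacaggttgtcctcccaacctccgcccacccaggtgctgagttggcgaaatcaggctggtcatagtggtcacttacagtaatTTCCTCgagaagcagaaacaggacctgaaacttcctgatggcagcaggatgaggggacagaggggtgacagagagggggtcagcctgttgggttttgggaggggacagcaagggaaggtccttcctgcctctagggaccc
C6: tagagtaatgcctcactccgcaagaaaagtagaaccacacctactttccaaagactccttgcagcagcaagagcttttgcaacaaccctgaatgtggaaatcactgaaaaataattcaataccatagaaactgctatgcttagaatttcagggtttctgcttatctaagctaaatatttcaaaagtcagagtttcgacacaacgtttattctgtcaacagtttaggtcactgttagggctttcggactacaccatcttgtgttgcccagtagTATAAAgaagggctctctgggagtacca
Of 27457 promoters of this length, 8.68% held the GAS motif (TTCNNNGAA), 27.5% the PU.1 core (GAGGAA), 7.60% the NF-kB motif and 14.3% the TATA box (TATAAA), on either strand. In C1qb the first PU.1 match begins at position -247 and the NF-kB match, on the other strand, overlaps it from position -245. In C1qa the GAS match begins at position -90, and in C6 the TATA match begins at position 23, after the annotated start. The interferon-response core motif (3.77% of promoters), AP-1 (TGANTCA, 7.33%) and the CCAAT box (CCAAT, 37.7%) had no match in the 5 member promoters searched, those of C1qa, C1qb, C1r, C3 and C6. The C/EBP motif (TTNNGNAA, 40.8%), left in lower case, matched in C1r, C3 and C6. The promoters of C1qc, C1s, C2 and Cfb were not searched. In the RefSeq order of genes, C1qb, C1qc and C1qa follow each other on chromosome 5, C1r lies beside C1s on chromosome 4, and C2 lies beside Cfb on chromosome 20.

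The first question of the design is what the seeded cells change at each day. Of the complement components, 1 member at 1 day passed the test between grafts. That member was C1s at day 90, lower with ADSCs by 0.61 on the log2 scale. At day 7 no member was called (2 had an unadjusted p under 0.05), against 7.75% of all named genes, and all 9 differences were below 0 with a median of -0.23. At day 30 no member was called (3 had an unadjusted p under 0.05), against 1.97% of all named genes, and 8 of 9 differences were below 0 with a median of -0.48. At day 90 the 1 called member stood against 10.2% of all named genes called and 7.05% called lower, and all 9 differences were below 0 with a median of -0.61. Without BAM_ADSCs replicate 3 the median at day 90 was -0.31 and 8 of 9 were below 0, C1qb being 0.15. At day 180 no member was called (2 had an unadjusted p under 0.05), against 1.05% of all named genes, and 8 of 9 differences were above 0 with a median of 0.39. The same contrasts by ordinary t tests in place of limma called the same number at each day. They stand in for the two-way ANOVA of the study's methods, which was not rerun in its own software or scaling.

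The median difference over all named genes was -0.13 at day 7, 0.08 at day 30, -0.16 at day 90 and 0.03 at day 180. Of the 15715 named genes, 5392 were above 0 at day 7, 9411 at day 30, 5754 at day 90 and 8686 at day 180. Against these medians, 8 of 9 members lay lower at days 7, 30 and 90, and 1 of 9 at day 180. This was counted for the main scaling only. With normexp background correction the median member difference at day 7 was -0.26, and the median over all gene probes was -0.29. With quantile normalization these medians were -0.15 and -0.01, with the percentile over detected probes -0.13 and -0.06, and with the series matrix -0.23 and 0.03. Members varied together within groups (C1qa and C1qc with C1qb, Pearson r 0.86), so they are not separate observations. Under the other scalings and background corrections 8 or 9 members were below 0 at days 7 and 90, where C1r at day 7 and C1qb at day 90 were the ones to change sign. The 8 below 0 at day 30 and the 1 at day 180 kept their number under every alternative that kept all arrays. With single arrays left out, Cfb at day 30 reached 0.14 (without BAM_ADSCs replicate 8), C1s at day 180 reached 0.06, and C1r and C3 at day 7 reached 0.04 and 0.03.

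**Figure D1:**
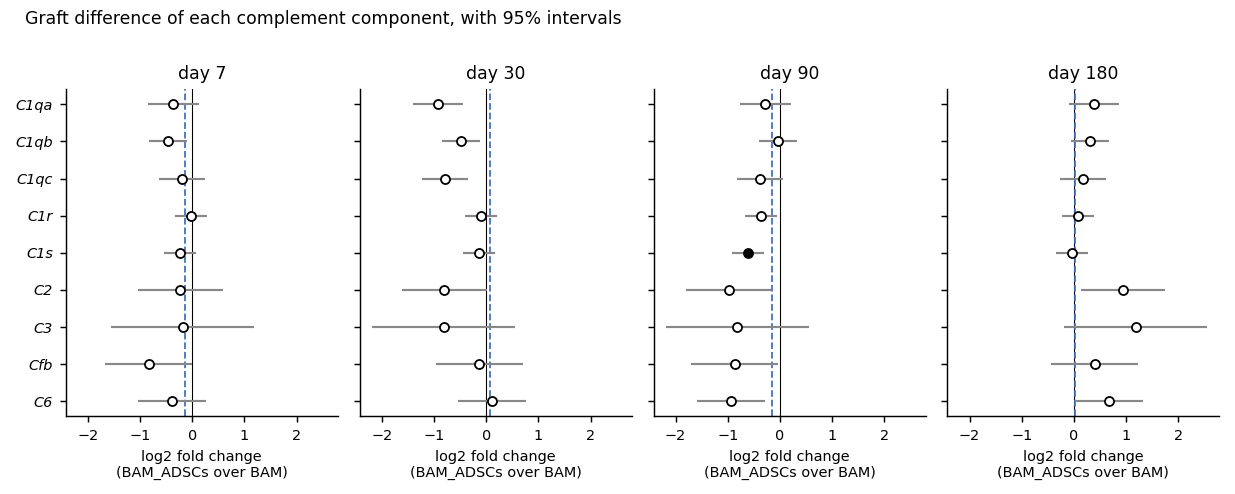
Log2 fold change of BAM_ADSCs over BAM for each of the 9 complement components at each day (points), with 95% intervals from limma (lines, 8 arrays against 8). The filled point, C1s at day 90, is the only one called, and the dashed line is the median over all 15715 named genes, -0.13, 0.08, -0.16 and 0.03 from left to right.

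The 4 days share no samples, so the differences can be set against each other. The graft difference of C6 at day 180 was 1.62 ± 0.46 (SE) above that at day 90, with a limma adjusted p of 0.0083, and it was the 1 member called, against 7.29% of all named genes. The call was kept in 17 of the 32 fits that left out an array, and without BAM_ADSCs at day 90 replicate 3 the value was 1.36 with an adjusted p of 0.021. The corresponding value for C2 was 1.92 ± 0.57 with an adjusted p of 0.012 (1.29 with 0.089 on its other probe), and for C3 it was 2.00 ± 0.97 with an adjusted p of 0.12. No member was called between days 7 and 30 (none had an unadjusted p under 0.05), against 0.872% of all named genes. Between days 30 and 90 again no member was called (2, C1s and C6, had an unadjusted p under 0.05), against 7.69%.

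The second question is how the components change over the course of healing. From day 30 to day 90 the C1q genes and C6 fell on BAM, and C1qa, C2 and C6 fell on BAM seeded with ADSCs. No member was called higher at any step. From day 7 to day 30 no member was called on BAM (0 had an unadjusted p under 0.05), against 10.1% of all named genes, or on BAM_ADSCs (2 had one), against 6.83%. From day 30 to day 90, 4 of 9 members were called lower on BAM, against 10.7% of all named genes called lower and 41.3% called in either direction. On BAM_ADSCs 3 of 9 were called lower, against 11.2% called lower and 28.6% in either direction. From day 90 to day 180, 1 of 9 was called lower on BAM, against 3.05% called lower and 7.83% in either direction, and none was called on BAM_ADSCs (1 had an unadjusted p under 0.05), against 2.67% in either direction. The step between days 30 and 90 coincides with the change of scan day, and over it 30.6% of all named genes were called higher on BAM and 17.4% on BAM_ADSCs. Without BAM_ADSCs at day 90 replicate 3, only C6 of the 3 members on BAM_ADSCs was still called.

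**Figure D2:**
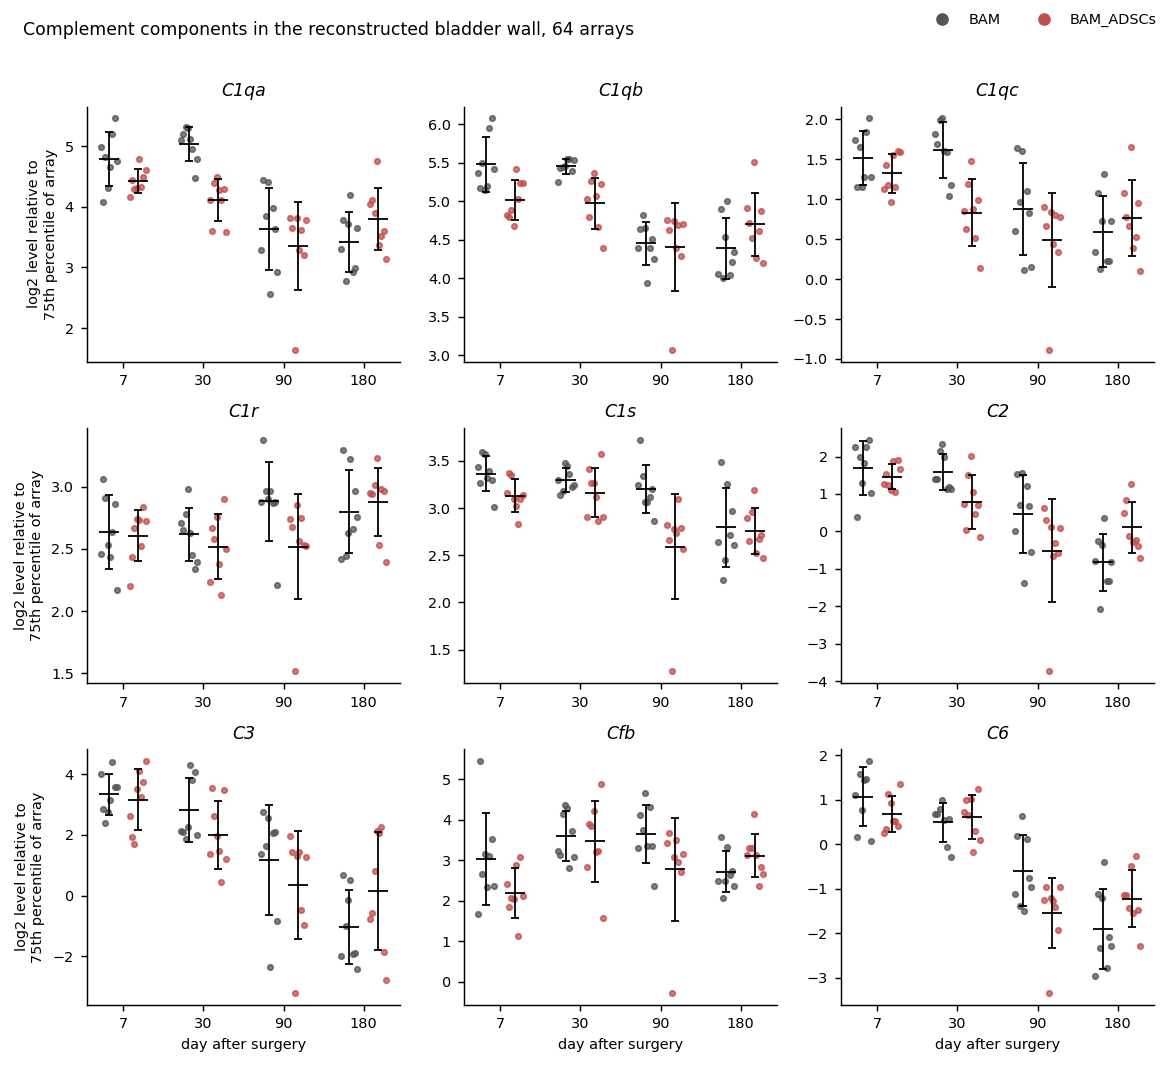
Log2 level of each complement component on each of the 64 arrays, relative to the 75th percentile of the array, by day for BAM (grey) and BAM_ADSCs (red), with the mean and SD of 8 arrays (bars). The isolated low red point at day 90, which appears in most panels, is replicate 3, the lowest of its group in all 9, and the grafts overlap in every panel at every day.

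C1qa, C1qb and C1qc encode the chains of C1q, the recognition molecule of the classical pathway. They stood lower on BAM_ADSCs than on BAM at day 30, without passing the test, and they fell on BAM between days 30 and 90. For C1qa at day 30, the BAM arrays ran from a log2 level of 4.48 through a median of 5.11 to 5.32, and the BAM_ADSCs arrays from 3.59 through 4.19 to 4.49. All but 1 array of each graft lay outside the range of the other, the exceptions meeting at 4.49 and 4.48. The difference was -0.92 (95% interval -1.41 to -0.44) with an adjusted p of 0.013, a ratio of 1.90. Without BAM at day 30 replicate 7, which held the 4.48, it was called with an adjusted p of 0.0080.

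C1qc at day 30 ran from 1.04 through 1.65 to 2.02 on BAM and from 0.14 through 0.86 to 1.48 on BAM_ADSCs. On each graft 6 of 8 arrays lay outside the range of the other. The difference was -0.79 (-1.23 to -0.34) with an adjusted p of 0.020. For C1qb it was -0.48 (-0.84 to -0.12) with an adjusted p of 0.084, where the BAM arrays ran from 5.25 through 5.46 to 5.55 and the BAM_ADSCs arrays from 4.40 through 5.05 to 5.37. C1qb was saturated on 7 of the 8 BAM arrays of that day, which had an SD of 0.10, the smallest of its 8 groups. At days 7, 90 and 180 the 3 genes differed between grafts by -0.47 to 0.39, with adjusted p of 0.063 or more.

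On BAM from day 30 to day 90, C1qa fell by 1.39 ± 0.24 (SE), with a limma adjusted p of 1.7e-06. Its arrays at day 90 ran from 2.57 through 3.75 to 4.43, all below the 4.48 that was lowest at day 30. C1qb fell by 1.00 ± 0.18 with an adjusted p of 3.0e-06, and its day 90 arrays ended at 4.83, also below all of day 30. The C1qb probe was saturated on 7 of 8 of these BAM arrays at day 30 and 4 of 8 at day 90, and the C1qa probe on 3 and 2, so that the levels there are lower limits and the differences are those of the measured signals. C1qc fell by 0.74 ± 0.22 with an adjusted p of 0.0028, with overlap between the days. Without BAM at day 90 replicate 5 the value of C1qc was -0.64 with an adjusted p of 0.012, and without replicate 8 it was -0.64 with 0.011, and neither passed. Under quantile normalization C1qb was -0.60 with an adjusted p of 0.010 and narrowly missed the threshold.

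On BAM_ADSCs the same step was called for C1qa alone of the 3. It fell by 0.76 ± 0.24 with a limma adjusted p of 0.0083, and its arrays ran from 1.64 through 3.64 to 3.81 at day 90. The call was kept in 8 of the 16 fits that left out an array, and without replicate 3 at day 90 the value was -0.51 with an adjusted p of 0.051. C1qb was -0.57 with an adjusted p of 0.0074 and stayed under the fold threshold, and C1qc was -0.35 with 0.18. The difference between the grafts in this step was called for none of the 3. It was 0.64 ± 0.34 for C1qa with an adjusted p of 0.14 (0.88 with 0.026 without that array), 0.43 for C1qb with 0.18 and 0.39 for C1qc with 0.33. Under quantile normalization the C1qb step was -0.66 on BAM_ADSCs and -0.60 on BAM, the reverse order.

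C1q is a product of macrophages, and the values of a macrophage marker list are given beside it. Of its 10 genes, none was called between grafts at any day, and their median difference was -0.41 at day 7, -0.74 at day 30, -0.25 at day 90 and 0.10 at day 180. On BAM from day 30 to day 90, 7 of 10 were called lower and 1, Marco, higher, although Marco was well above background on no array of either day. From day 7 to day 30 on BAM the median difference of the list was -0.38, beside 0.24 for C1qa, -0.03 for C1qb and 0.10 for C1qc. On BAM_ADSCs from day 90 to day 180 it was 0.21, beside 0.45, 0.29 and 0.28. From day 30 to day 90 on BAM_ADSCs it was -0.68, with 3 of 10 called lower, beside -0.76, -0.57 and -0.35. From day 7 to day 30 on BAM_ADSCs it was -0.48, with 1 called higher and 1 lower. Beside it stood -0.32 for C1qa and -0.04 for C1qb, and C1qc had group means of 1.33 and 0.83. The summed level of the list, in units of the 75th percentile, ran from 47.3 to 82.2 on BAM at day 30, from 23.9 to 61.3 on BAM_ADSCs at day 30, from 8.39 to 48.5 on BAM at day 90 and from 5.01 to 31.5 on BAM_ADSCs at day 90. The defining markers Cd68, Cd14 and Aif1 were well above background on all arrays of every group and Csf1r on 7 or 8 of 8. The part of the number of macrophages in the C1q values was not tested.

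**Figure D3:**
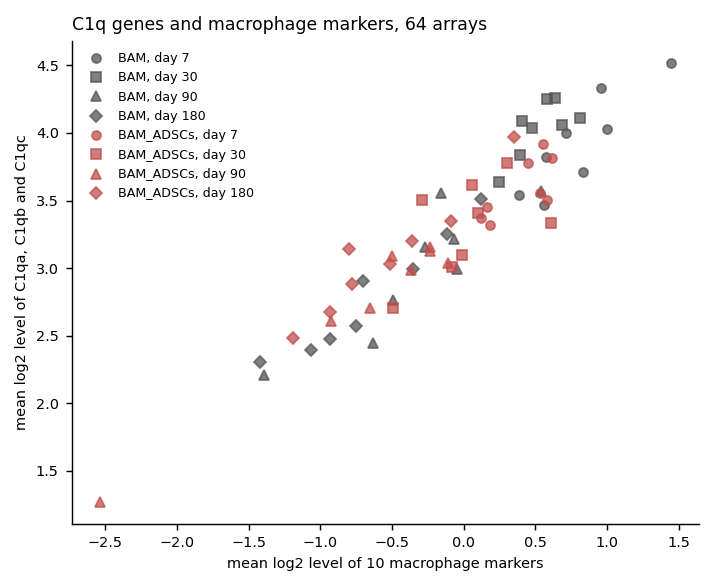
Mean log2 level of C1qa, C1qb and C1qc (vertical) against the mean log2 level of 10 macrophage markers (horizontal) on each of the 64 arrays, by graft (color) and day (symbol). The points run from 1.27 against -2.54 on BAM_ADSCs at day 90 replicate 3 to 4.52 against 1.45 on 1 array of BAM at day 7.

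C1r and C1s are the proteases that C1q activates. C1s carried the 1 call between grafts, and C1r was among the steadiest members over time. At day 90 the C1s arrays ran from 2.86 through 3.16 to 3.73 on BAM and from 1.27 through 2.76 to 3.10 on BAM_ADSCs. On BAM_ADSCs 7 of 8 arrays were below all BAM arrays, and 5 of 8 BAM arrays were above all BAM_ADSCs arrays. The difference was -0.61 ± 0.15 (SE, 95% interval -0.92 to -0.30), a 1.53-fold lower level, with a limma adjusted p of 0.0021. Without BAM_ADSCs replicate 3 it was -0.42 with an adjusted p of 0.011, and without BAM replicate 2 it was -0.54 with 0.0073 and a fold under the threshold, so that neither was called. At days 7, 30 and 180 C1s differed by -0.23, -0.13 and -0.04, with adjusted p of 0.34 or more. Over time, the step of C1s from day 30 to day 90 on BAM_ADSCs was -0.57 and not called. It was called with normexp (-0.67, limma adjusted p 0.00042), quantile normalization (-0.59, 0.0020) and the percentile over detected probes (-0.60, 0.0016). Without BAM_ADSCs at day 90 replicate 3 the step was -0.39 with 0.012. On BAM the group mean of C1s was 3.20 at day 90 and 2.80 at day 180. At day 90 the fibroblast markers Col1a1, Col1a2 and Dcn were higher on BAM_ADSCs, by 0.75, 1.02 and 0.76, while Pdgfra, Lum and Thy1, the other 3 of the 6 listed, differed by -0.15, -0.04 and -0.01. The part of fibroblasts in the value of C1s was not tested.

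C1r at day 90 ran from 2.21 through 2.89 to 3.38 on BAM and from 1.52 through 2.62 to 2.85 on BAM_ADSCs. All BAM arrays but replicate 8 lay above all BAM_ADSCs arrays. The difference was -0.36 (-0.66 to -0.06) with an adjusted p of 0.053, and without BAM_ADSCs replicate 3 it was -0.22 with 0.20. At the other days C1r differed between grafts by -0.10 to 0.08. Its group means stayed between 2.52 and 2.88 over all 8 groups, and no step between days was called.

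C2 and Cfb encode the proteases that cut C3, in the classical and in the alternative pathway. C2 was called lower at day 90 than at day 30 on BAM_ADSCs, a call that several alternatives lost, and Cfb was called nowhere. The C2 arrays of BAM_ADSCs ran from -0.16 through 0.71 to 2.01 at day 30 and from -3.74 through -0.10 to 0.63 at day 90. The days overlapped, and the lowest value was that of replicate 3. The step was -1.31 ± 0.41 with a limma adjusted p of 0.0062, but -0.85 with 0.042 without replicate 3, and -0.99 with 0.035 on the other C2 probe. The call was also lost without day 30 replicate 3 (-1.21 with 0.016), 4 (-1.13 with 0.021) or 5 (-1.27 with 0.011). Without day 90 replicate 5 the step was -1.29 with 0.0103. With normexp it was -0.97 with 0.022, and with the mean over the probes of the gene -1.15 with 0.014, and none of these was called. On BAM the same step was -1.12 with an adjusted p of 0.014, and from day 90 to day 180 it was -1.30 with 0.013. On the other C2 probe these steps were -1.13 with 0.012 and -0.78 with 0.16. On the main probe they were called without BAM at day 90 replicate 2, 4 or 6 for the first (-1.28 to -1.23) and without replicate 5 or 8 of day 90 or 5 of day 180 for the second (-1.56 to -1.44). On BAM at day 180 C2 ran from -2.08 through -0.81 to 0.35, and on BAM_ADSCs from -0.71 through -0.18 to 1.26. The difference there was 0.94 (0.13 to 1.75) with an adjusted p of 0.23.

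Cfb had its widest spread on BAM_ADSCs at day 90, with an SD of 1.27, and its values at day 7 ran from 1.66 through 2.89 to 5.45 on BAM and from 1.14 through 2.09 to 3.09 on BAM_ADSCs. The BAM array at 5.45 was replicate 2, well above the next at 3.53. The difference was -0.84 (-1.67 to 0.00) with an adjusted p of 0.17, and it was -0.49 without that array. At day 90 the difference was -0.87 with an adjusted p of 0.091, and -0.43 with 0.36 without BAM_ADSCs replicate 3. On BAM_ADSCs Cfb was 1.27 ± 0.42 higher at day 30 than at day 7 with an adjusted p of 0.020, and without replicate 8 of day 30 it was 1.54 with 0.0045 and called. It was the largest positive step of any member.

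C3 is the protein on which all complement pathways meet. Its SDs within groups ran from 0.67 to 1.94 and were the widest of all members in every group but BAM at day 7, where those of C2 (0.73) and Cfb (1.14) were wider, and no comparison of it passed the test. On BAM its arrays ran from 2.40 through 3.37 to 4.40 at day 7, from 1.88 through 2.20 to 4.30 at day 30, from -2.37 through 1.85 to 2.76 at day 90 and from -2.43 through -1.46 to 0.68 at day 180. On BAM_ADSCs they ran from 1.70 through 3.38 to 4.44, from 0.45 through 1.71 to 3.54, from -3.21 through 1.28 to 1.98 and from -2.78 through 0.11 to 2.26 at the same days. The median was lower at each later day on both grafts, and neighboring days overlapped on both. On BAM the step from day 90 to day 180 was -2.19 ± 0.68 with an adjusted p of 0.013, and the step from day 30 to day 90 was -1.66 with 0.031. The later step was called in 4 of the fits that left out an array, without BAM at day 90 replicate 5 (-2.69 with 0.0014) or replicate 8 (-2.47 with 0.0058) or at day 180 replicate 2 (-2.43 with 0.0073) or replicate 5 (-2.41 with 0.0084). The graft difference was -0.18 at day 7, -0.81 at day 30, -0.82 at day 90 and 1.18 at day 180, and all 4 intervals held 0, the last running from -0.19 to 2.55.

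C6 joins the pore that complement builds in membranes. It was the member with most calls, lower at day 90 than at day 30 on both grafts and lower again at day 180 on BAM. On BAM_ADSCs its arrays ran from -0.17 through 0.69 to 1.24 at day 30 and from -3.34 through -1.27 to -0.96 at day 90, with no overlap between the days. The step was -2.15 ± 0.33 with a limma adjusted p of 2.7e-07, a 4.43-fold lower level, and -1.89 with 2.1e-06 without replicate 3 of day 90. On BAM the arrays ran from -0.28 through 0.62 to 1.00 at day 30, from -1.49 through -0.86 to 0.64 at day 90 and from -2.96 through -2.19 to -0.39 at day 180. These steps were -1.09 ± 0.33 with an adjusted p of 0.0032 and -1.30 ± 0.33 with 0.0018, and the days overlapped. The first of them missed the threshold without BAM at day 90 replicate 3 (-0.97 with 0.0103) or replicate 5 (-0.96 with 0.011).

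Between grafts C6 differed by -0.38 at day 7, 0.12 at day 30, -0.95 at day 90 and 0.67 at day 180. At day 90 the interval was -1.60 to -0.29 with an adjusted p of 0.022, and the value was -0.69 with 0.081 without BAM_ADSCs replicate 3. At day 180 the interval was 0.02 to 1.33 with an adjusted p of 0.33. At both days the ranges of the grafts overlapped.

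Beside these members, 35 of 43 other complement genes had a named probe. Between grafts 1 of them was called higher and 3 lower at day 7, 2 lower at day 90 and none at days 30 and 180, where 7.75%, 10.2%, 1.97% and 1.05% of all named genes were called at days 7, 90, 30 and 180. Clu, clusterin, which keeps the pore from inserting into membranes, was higher on BAM_ADSCs at day 7. Its arrays ran from 1.73 through 2.20 to 2.83 on BAM and from 2.49 through 3.07 to 3.78 on BAM_ADSCs, and the difference was 0.87 ± 0.19 with a limma adjusted p of 0.00045. Cd93, a membrane protein of endothelium and myeloid cells first described as a C1q receptor, differed by -0.64 ± 0.18 with an adjusted p of 0.0067, and its highest BAM_ADSCs array, 3.18, was just above the lowest BAM array, 3.16. The urothelial genes Upk1a, Upk1b, Upk2 and Upk3a were also called higher on BAM_ADSCs at day 7, by 1.79 to 2.87, while Krt5 and Krt20 of the same list were not called (1.72 and 0.02). The summed level of that list at day 7 ran from 2.03 (replicate 7) through a median of 24.2 to 90.9 on BAM. On BAM_ADSCs it ran from 32.6 through 94.9 to 132. Of 7 neutrophil genes, Csf3r and Camp were called lower, with differences of -1.82 and -0.85, and the other 5 differed by -1.54 to -0.79. The part of the urothelial and myeloid cells in these values was not tested.

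The remaining calls between grafts rested on dim probes. At day 7 C9, which closes the membrane pore, and Masp2, a protease of the lectin pathway, were well above background on 4 of 8 BAM arrays and on no BAM_ADSCs array. Both were called lower, C9 with an adjusted p of 1.6e-05 and Masp2 with 0.0096, and no fold is given since neither graft was measured in full. At day 90 Masp1, a further protease of that pathway, differed by -1.18 ± 0.26 with an adjusted p of 0.00050 and was well above background on 6 BAM and 4 BAM_ADSCs arrays. Colec10, a collectin, was called lower with an adjusted p of 0.0086 but was well above background on only 1 BAM array and no BAM_ADSCs array, and no fold is given. At day 90 Cd4 was also called lower with a difference of -1.01, and 2 of 6 smooth muscle genes, Myh11 and Actg2, higher by 1.09 and 1.00, the other 4 differing by -0.32 to 0.52.

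**Figure D4:**
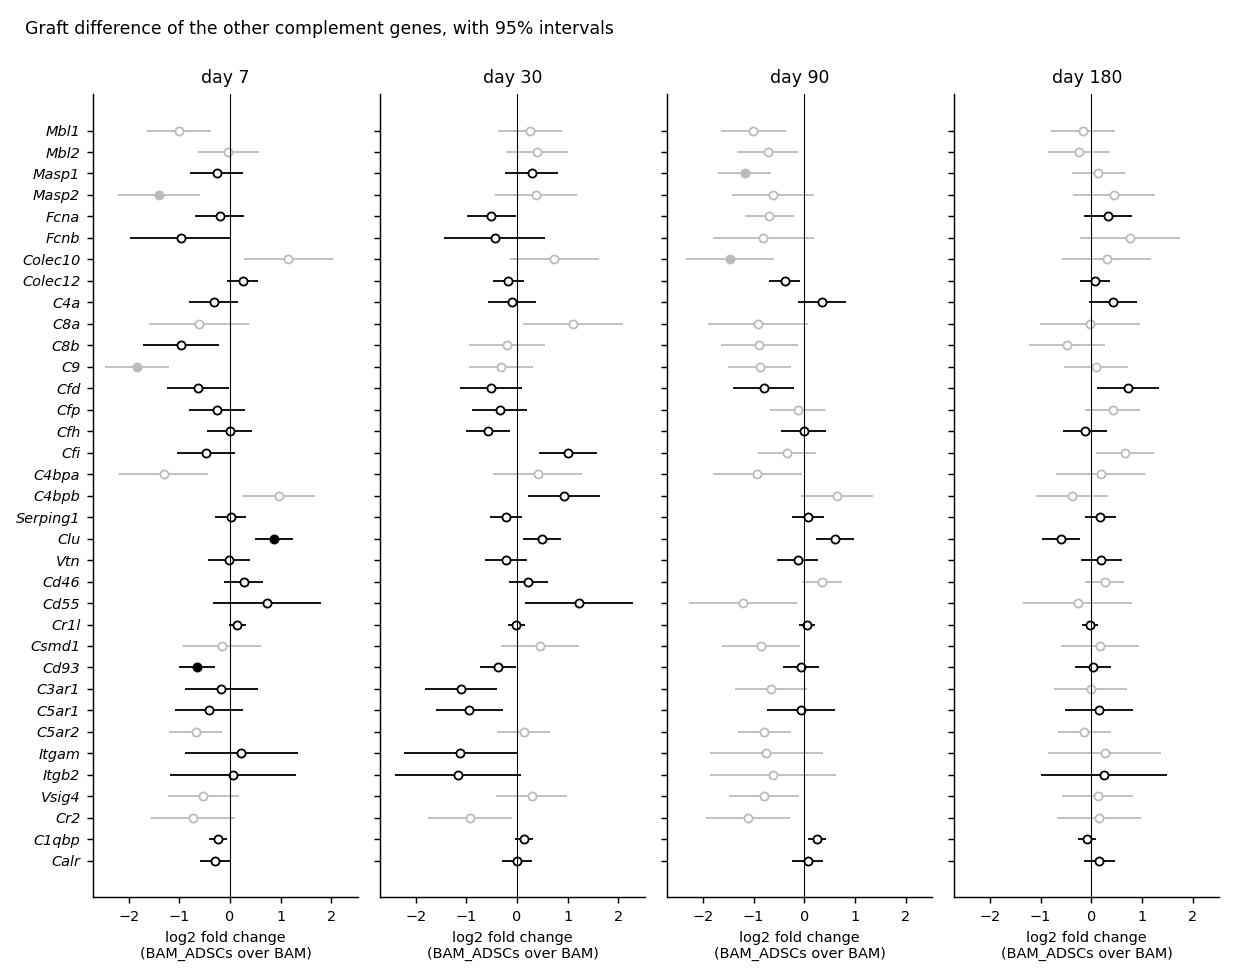
Log2 fold change of BAM_ADSCs over BAM for the 35 other complement genes at each day (points) with 95% intervals from limma, from the lectin pathway at the top to the receptors at the bottom. Filled points are called, and grey marks genes not well above background on all 16 arrays. Clu at day 7 (0.87) and Cd93 at day 7 (-0.64) are the called genes drawn in black.

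Over the steps between days, 11 of the 35 genes were called higher and 10 lower on BAM from day 30 to day 90, and 6 higher and 9 lower on BAM_ADSCs. Of all named genes 30.6% were called higher and 10.7% lower on BAM, and 17.4% and 11.2% on BAM_ADSCs. Of the called genes of the list, 14 on BAM and 11 on BAM_ADSCs were well above background on at least 1 array of both days. The called genes with the largest change on BAM, Mbl2 and C8a, were well above background on no array of either day. Among the genes measured on both days were Itgb2 and Itgam, the chains of complement receptor 3, which fell by 2.56 and 2.52 on BAM, and Itgam fell by 2.14 on BAM_ADSCs. Cfi, the protease that inactivates C3b, fell by 2.17 on BAM from day 7 to day 30 with a limma adjusted p of 4.3e-08 and by 2.22 on BAM_ADSCs from day 30 to day 90 with 6.0e-09. Fcnb, a ficolin of myeloid cells, fell by 1.72 on BAM from day 7 to day 30.

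From day 90 to day 180 on BAM, Masp1 fell by 1.04 and Clu rose by 0.98 with an adjusted p of 3.4e-05, and none of the 35 was called on BAM_ADSCs. On BAM_ADSCs from day 7 to day 30, Cfp, the stabilizer of the alternative pathway enzyme, fell by 0.99, and C9 was called higher with an adjusted p of 0.0097 and no fold, being well above background on 3 of 8 arrays at day 30 and on none at day 7.

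The array-to-array pattern of C1qb and C3, once each group mean was taken out, was compared with 5224 and 5225 named genes well above background on all arrays. These values describe the 64 arrays, which share slides within groups, and carry no test. Closest to C1qb were C1qc (Pearson r 0.86, Spearman rho 0.82), C1qa (0.86 and 0.82), Ppm1n (0.82 and 0.77), Fcer1g (0.82 and 0.76) and Aif1 (0.80 and 0.73). Without BAM_ADSCs at day 90 replicate 3 these r were 0.75 to 0.83. Closest to C3 were Rac2 (0.81 and 0.73), Cd74 (0.76 and 0.73), Napsa (0.75 and 0.65), RT1-Da (0.74 and 0.69) and Snx20 (0.72 and 0.58), with r of 0.68 to 0.78 without that array. Among the other members, C2 had an r of 0.82 with C1qb and C3 an r of 0.60.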

How the data were processed

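The authors deposited the Agilent Feature Extraction 12.0.1.1 output of each array, in which each spot has a linear intensity, already background-subtracted but not yet normalized between arrays, and a series matrix of these intensity values, which differs from the scanner output by a constant factor on 3 arrays of BAM_ADSCs at day 7 (log2 differences of -3.30 to -3.31) and lacks 24873 spots of 1 array of BAM at day 180. These deposited intensities were put on the log2 scale after division by their own array's 75th percentile over 58717 gene spots. The 4259 control spots and the spots flagged as outliers (0.950% of gene spots) were left out, and spots of a probe were averaged. Of 22372 probes with a RefSeq accession, 18758 matched the RefSeq table (GRCr8), for 15715 genes. A gene with several probes was represented by the one with the highest mean. A probe was well above background where at least 0.5 of its spots were.

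Group means were fitted over all 30367 probes and 64 arrays with limma 3.58.1 in R 4.3.3, with Benjamini-Hochberg adjustment over all probes, and 13 contrasts were drawn. Python 3.11.15, numpy 2.4.6, pandas 2.3.3 and matplotlib 3.10.9 were used for the rest. The fit was also run on simulated arrays, and its outcome there is not used as support here. The number of arrays limits the precision.

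Groups came from the sample titles. The members and lists were chosen with earlier results of these data known. Named beside the members are other complement genes called between grafts, for each step between days the called genes with the largest change (2 a step), the markers called between grafts, and the 5 genes most like C1qb and C3. Itgb2 and Itgam on BAM were named after their values were seen, since the leading genes of that step were below background. Alternatives were normexp with an offset of 50, quantile normalization, a percentile over detected probes, the series matrix and dim probes left out. Further ones were the replicate number as a block, ordinary t tests in place of limma, outlier spots kept and the mean over the probes of a gene. Each array was also left out in turn. The t tests used the same group means and contrasts and stand in for the two-way ANOVA of the methods. Slide could not be a block. Marker lists covered macrophages, neutrophils, fibroblasts, urothelium, smooth muscle, hepatocytes, adipocytes, T cells, B cells and mast cells. A further complement gene is not reported here.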

Additional observations from a re-analysis of the deposited data

Results flagged for a closer look

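Among 72 sets of 8 values (9 members in 8 groups), 9 held a lowest array set apart from the rest by Dixon's criterion, which chance exceeds in about 1 of 20 sets. In 8 of them the array was BAM_ADSCs at day 90 replicate 3, whose gap to the next array was 0.717 of the group's range for C1qa, 0.722 for C1qb, 0.683 for C1qc, 0.709 for C1s, 0.754 for C1r, 0.706 for C2, 0.591 for C6 and 0.757 for Cfb. The other was BAM at day 90 replicate 8 for C1r, with a gap of 0.563 of the range.

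Among the 9 members and 35 other complement genes, the difference between grafts itself differed between neighboring days in 6 tests by limma. Of the 35, 0 were called from day 7 to 30 and 2 from day 30 to 90. From day 90 to 180, 2 were called higher and 1 lower. Of all named genes 0.872%, 7.69% and 7.29% were called at these steps. For C6, the 1 member called, the graft difference was 1.62 higher at day 180 than at day 90. For Masp1 it changed by -1.47 from day 30 to day 90 and was 1.32 higher at day 180 than at day 90. For Colec10 it changed by -2.20 from day 30 to day 90, on probes mostly below background. For Cfd, the protease that activates factor B, it was 1.53 higher at day 180 than at day 90 (adjusted p 0.0072), and for Clu it changed by -1.21 over the same days (adjusted p 0.00045).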

How the results depend on the processing

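Of 91 differences of single members, 81 to 91 kept their sign and their side of the threshold under each alternative. All 91 did with the series matrix, the ordinary t tests, outlier spots kept and the replicate number as a block. The numbers do not pair the samples: correlations of same-numbered arrays of both grafts had medians of -0.02 to 0.08, and with the block the calls stayed at 0, 0, 1 and 0 between grafts. Signs changed in members near 0, the cause not being tested. With normexp C1qb at day 90 became 5.2e-05, C1qb on BAM from day 7 to 30 0.0036, C1r at day 7 0.067, C1r on BAM from day 7 to 30 0.020 and C1r on BAM_ADSCs from day 30 to 90 -0.092. With quantile normalization the values were 0.11 for C1qb on BAM from day 7 to 30, -0.055 for C1s on BAM_ADSCs from day 7 to 30 and 0.091 for C1r at day 7. With the percentile over detected probes they were 0.0053 for C1qb at day 90, -0.030 for C1s on BAM_ADSCs from day 7 to 30, 0.077 for C1r at day 7 and -0.020 for C1r on BAM_ADSCs from day 30 to 90.

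Counts of called members moved as follows. The 1 call between grafts at day 90 (C1s) went to 0 with quantile normalization and with the detected percentile. At day 30 it went from 0 to 1 without dim probes (C1qa). The 3 calls on BAM_ADSCs from day 30 to 90 became 5 with quantile normalization and with the detected percentile, and 2 with the mean over probes. The 4 on BAM over the same days became 5 with normexp and 3 with quantile normalization. The 1 call on BAM from day 90 to 180 became 2 with normexp and 3 without dim probes. The 1 graft difference that differed between days 90 and 180 became 0 with normexp, quantile normalization, the detected percentile and the mean over probes, and 2 without dim probes. With 1 array left out, the calls ranged from 0 to 1 between grafts at days 30 and 90 and on BAM_ADSCs from day 7 to 30, from 2 to 5 on BAM and 1 to 5 on BAM_ADSCs from day 30 to 90, from 1 to 3 on BAM from day 90 to 180, from 0 to 2 for the graft difference between days 90 and 180, and stayed at 0 for the other comparisons. Saturated spots give lower limits for C1qa, C1qb and Cfb, and C9, Masp2 and Colec10 were below background on many arrays.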
